A study of Mus musculus with 6 samples.

Results

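The axoneme is the microtubule core of the sperm flagellum, and 20 genes that encode or assemble its parts were followed through the testes of mice in which Ret kinase was inhibited. They were chosen by name from the 23361 genes of the deposited table: symbols of the numbered Dnah, Dnaic, Dnal, Cfap, Tekt and Drc series, the Dnaaf and Rsph series, Dnali1, and Spag6, Spag16 and Spag17. They comprised the dynein intermediate and light chain genes Dnaic1, Dnaic2 and Dnali1, and the dynein assembly factors Dnaaf1, Dnaaf2 and Dnaaf3. The radial spoke genes were Rsph1, Rsph3a, Rsph3b, Rsph4a, Rsph6a and Rsph9, the central pair genes Spag6, Spag16 and Spag17, and the tektins Tekt1 to Tekt5. No dynein heavy chain and no Cfap or Drc gene matched, because the table carries their older symbols: 37 such genes, 11 of them heavy chains written Dnahc, appear under other names, as do 7 genes of the Dnal, Dnaaf and Rsph series, 44 in all. They are therefore not members and are given separately. Of the 20 members, 19 passed the filter on low counts and were tested, and Rsph4a did not.

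All 6 mice were C57BL/6J, about 120 days old and homozygous for Ret (V805A), a form of the receptor kinase through which glial cell line-derived neurotrophic factor acts on spermatogonial stem cells, made sensitive to 1NaPP1-HCl by the substitution. The control group (3 mice) was injected daily for 9 days with a saline, cremophor and ethanol vehicle, and the inhibitor group (3 mice) with 1NaPP1-HCl in that vehicle. Testes were taken on day 14, after 5 days without injections, and their polyadenylated RNA was sequenced. The comparison addresses what the testis transcriptome looks like after Ret signalling was blocked and then released. No mice lacking the substitution are among the 6, so the compound and the block of Ret cannot be told apart.

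In a motile flagellum, dynein motors on the outer microtubule doublets slide them past each other. The motors are built from heavy chains, which carry the motor domain, and from intermediate and light chains, and they are put together in the cytoplasm by assembly factors. Radial spokes and the central pair of microtubules regulate the motors, and tektins line the inside of the doublets. In the testis these genes are transcribed in meiotic and postmeiotic germ cells that build the sperm tail, while Ret acts in the undifferentiated spermatogonia that precede them.

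Library totals ranged from 23144295 to 43127892 fragments. Ret itself stood at 2.28, 2.39 and 1.84 CPM (fragment counts scaled to library size by the trimmed mean of M values) in controls and at 0.486, 0.656 and 0.595 in inhibitor mice, which is -1.91 as a log2 fold change (edgeR quasi-likelihood test, Benjamini-Hochberg adjusted p = 0.0199). The estimate stayed between -2.01 and -1.80 when 1 mouse was left out, but the call was lost without control 1, control 2, inhibitor 1 or inhibitor 2, fits in which 0 genes of the whole table passed, and with limma on log2(FPKM + 1) or log2(FPKM + 0.1); DESeq2 gave Ret no adjusted p. In the list of undifferentiated spermatogonial markers, to which Ret belongs, 9 of 9 tested genes were lower in estimate and 4 passed the adjusted test. The number past it was 1 with an offset for transcript length and GC content, 1 in DESeq2 and 7 without inhibitor mouse 3. The list of elongating spermatid markers summed to 21097, 21469 and 21869 CPM in controls and to 24183, 24266 and 23056 CPM in inhibitor mice. The median log2 fold change over its 10 genes was 0.15 (0.056 with the length and GC offset). As fitted 0 of them passed the adjusted test, with 3 in DESeq2 and 6 without inhibitor mouse 3. Spermatocyte markers had a median of 0.150 (0.074 with the offset) and round spermatid markers 0.103 (0.002 with the offset). In both of these lists 0 genes passed as fitted. Whole testis was sequenced, so fewer or more cells of a type and less or more RNA per cell cannot be told apart, and the part that cell composition plays in any value given here was not tested. The number of calls depended strongly on inhibitor mouse 3. With all mice 26 of 16658 tested genes passed the adjusted threshold of 0.05 (0.156%), and without inhibitor mouse 3 2405 of 16871 did (14.3%).

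A pair of near-identical members has to be read with care, and the ungapped stretch of 81 bases with the most mismatches is shown for that reason. Rsph3a (mm10 chromosome 17, 7945614 to 7979824, plus strand) and Rsph3b (chromosome 17, 6904413 to 6948682, minus strand) encode radial spoke proteins. In the GENCODE M21 transcripts 1535 of 1548 aligned coding bases were identical (99.16%). The coding sequence of Rsph3b is longer, at 1605 bases against 1548 in Rsph3a, and its further bases are not part of that share. Capitals mark the bases that differ, 5 of the 13 mismatches, over coding bases 208 to 288 of Rsph3a and 262 to 342 of Rsph3b:
Rsph3a: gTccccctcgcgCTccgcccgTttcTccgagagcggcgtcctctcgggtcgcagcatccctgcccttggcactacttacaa
Rsph3b: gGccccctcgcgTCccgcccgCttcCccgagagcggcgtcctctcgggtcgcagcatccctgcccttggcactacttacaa
Of all stretches as long as a read (81 bases), 70.07% in Rsph3a and 68.52% in Rsph3b also occur in another gene. The division of such reads between genes in the authors' counting is not known here, and the separate values of both are uncertain.

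A sequence feature that the name rule did not use is the half-site of the X-box, the DNA element bound by RFX factors in ciliary genes, shown here as it lies before member genes. In 300-base RefSeq promoter windows (GRCm38.p6, 250 bases before and 50 after each start), 16 members with an unambiguous symbol had 19 windows; none was found for Dnaaf1, Rsph1 and Rsph4a. The letters GTTGCC, on either strand, occurred in 8 of the 19 member windows (42.105%), belonging to Dnaaf2, Dnaic2, Rsph3b, Spag16, Tekt1, Tekt2 and Tekt4, and in 12.514% of all 32851 windows. Among genes of the same families under older symbols, 18 of 44 windows held it (40.909%). In the examples the capitals mark GTTGCC or its reverse complement GGCAAC, and each sequence is written on the strand of its gene:
Dnaaf2 (chr12:69198430-69198458, minus strand): ctcctcccaggcgttactatGGCAACaaa
Dnaic2 (chr11:114727373-114727418, plus strand): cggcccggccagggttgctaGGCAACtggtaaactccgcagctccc
Spag16 (chr1:69826839-69826884, plus strand): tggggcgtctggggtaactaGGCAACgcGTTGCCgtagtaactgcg
Tekt2 (chr4:126325759-126325804, minus strand): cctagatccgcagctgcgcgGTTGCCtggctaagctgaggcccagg
All 4 stretches lie before the RefSeq start of their gene. The looser GTTNCC, of which GTTGCC is a case, was found in 84.211% of member windows and 45.344% of all windows, and the inverted pair of GTNNCC and GGNNAC with any 2 bases between them in 10.526% (Rsph9 and Tekt4) and 1.881%. The full palindrome of GTTGCC, AT and GGCAAC occurred in no member window and in 0.018% of all windows, and the looser one of GTTNCC, AT and GGNAAC in no member window and in 0.128%. The cyclic AMP response element TGACGTCA was likewise in no member window (1.79% of all), and its looser form TGACGTNN, which includes it, was in 15.789% of member windows (7.491% of all). These 7 patterns were the ones searched; a match describes the letters in the window and is not a binding site.

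The members were abundant in every testis, with 1 exception. Levels per transcript length, as deposited FPKM averaged over the 6 libraries, ran from 18.1 (Dnaaf2) to 753 (Rsph1) among the 19 tested members, with a median of 110, against a median of 6.27 over all tested genes. Rsph4a, a radial spoke head gene, averaged 0.0803 FPKM. Each tested member was represented by 586 to 43652 fragments in a library, whereas Rsph4a had 3 to 14.

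**Figure D1:**
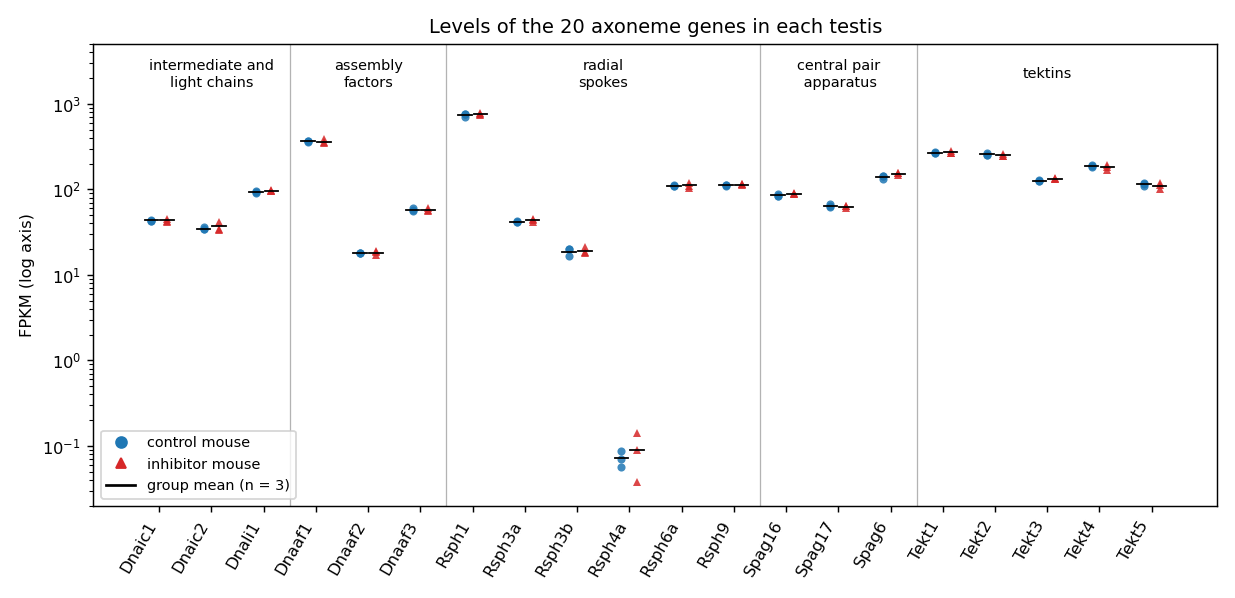
FPKM (log axis) of the 20 members in each mouse, grouped by role; blue circles are controls, red triangles inhibitor mice and bars group means of 3. The 2 groups lie at nearly the same height for every tested member, and Rsph4a stands below 0.2 while Rsph1 lies near the top.

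None of the 19 tested members differed between inhibitor and control mice after adjustment, and their estimated changes were small. Log2 fold changes ranged from -0.071 (Tekt5) to 0.13 (Spag6), with a median of 0.027, against -0.004 over all 16658 tested genes. The number past an adjusted p of 0.05 was 0, against 0.156% of all genes, and the smallest adjusted p was 0.187; DESeq2 and limma also called 0 members. At an unadjusted p under 0.05, 1 member was higher (5.26% of 19, against 9.43% of all genes) and 0 were lower (8.48% of all genes). The groups did not overlap, with the inhibitor mice higher, for 2 members (10.5%, against 11% of all genes), and for 0 with the inhibitor mice lower (11.9% of all genes).

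The precision of these estimates was high enough to bound the changes. The 95% interval of the log2 fold change lay between -0.199 and 0.248 for every tested member, so all 19 intervals were inside a 1.2-fold change either way, a bound chosen after the values were seen, and 18 of the 19 included 0. Of all tested genes, 5482 had intervals inside this bound (32.9%). The standard error had a median of 0.050. Over the 6 libraries, the coefficient of variation of a tested member's CPM was 1.97% (Rsph9) to 8.71% (Rsph3b), with a median of 3.7%, against a median of 9.57% for all tested genes. Lower counts widen this measure, and the members' median FPKM was above that of all genes.

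**Figure D2:**
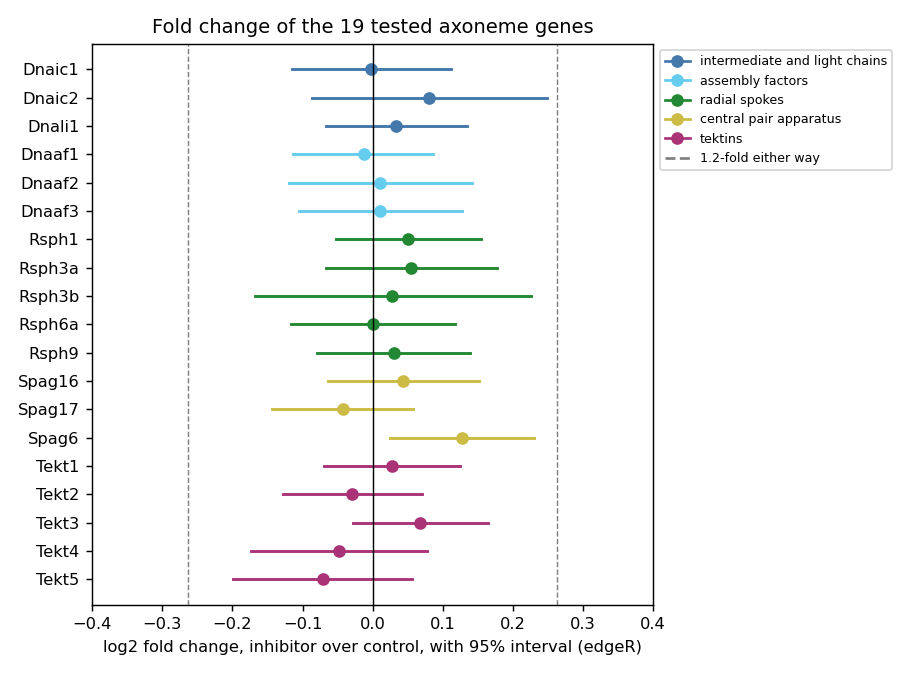
Log2 fold change of inhibitor over control mice for the 19 tested members, with 95% intervals derived from the edgeR F-test, coloured by role. Dashed lines mark a 1.2-fold change either way. All intervals lie between the dashed lines, and that of Spag6 alone does not cross 0.

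The intermediate and light chain genes showed no change past the test. Dnali1, an inner-arm light chain, had the highest level of them, at 96.7, 92.9 and 90.4 FPKM in controls and 94.6, 94.8 and 97.5 FPKM in inhibitor mice. The groups overlapped, and the log2 fold change was 0.033 (SE 0.046, edgeR adjusted p = 0.749). Dnaic2, an outer-arm intermediate chain, stood at 92.7, 97.8 and 93.3 CPM in controls and at 94.3, 91.7 and 114 CPM in inhibitor mice. Only inhibitor mouse 3 lay above the controls; the log2 fold change was 0.080 (SE 0.076, edgeR adjusted p = 0.621) with it and -0.025 without it. Dnaic1, the other outer-arm intermediate chain, varied from 96.9 to 105 CPM over the 6 mice, and its interval ran from -0.115 to 0.111.

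Among the assembly factors, Dnaaf1 was the most abundant. It was at 965, 994 and 954 CPM in controls and 927, 941 and 1019 CPM in inhibitor mice, so that inhibitor mice were both the lowest and the highest (log2 fold change -0.013, SE 0.046, edgeR adjusted p = 0.914). Dnaaf3 lay between 111 and 122 CPM in all mice and Dnaaf2 between 42.6 and 46.6 CPM, each with a log2 fold change of 0.011. Exons of Dnaaf2 share 32.7% of their bases with 9330151L19Rik on the opposite strand, and 22.3% and 20.6% with Gm49383 and Gm49384 on the same strand. Of its read-length stretches, 65.92% also occur in another gene, most often the overlapping 9330151L19Rik, so its value is uncertain too. Rsph3a and Rsph3b, by contrast, lie at separate positions, and the sizes of these uncertainties were not compared. Exons of Dnaaf1 share 20.7% with Taf1c on the opposite strand. The kit marks strand, but no source used here gives the strand setting of the counting, and fragments of such neighbours may be included. The same holds for Tekt2 (20.8% with Gm12945), Dnaaf3 (12.6% with Gm15873) and Spag17 (9.7% with Wdr3).

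The radial spoke genes included the highest and the lowest levels of the set. Rsph1, a spoke head component, was at 760, 763 and 694 FPKM in controls and 744, 769 and 789 FPKM in inhibitor mice. Control 3 was lowest, the groups overlapped, and the log2 fold change was 0.051 (SE 0.048, edgeR adjusted p = 0.612). Rsph3a stood at 73.6, 77.4 and 73.8 CPM in controls and 78.3, 74.0 and 81.3 CPM in inhibitor mice, and the estimate was 0.055 (SE 0.056, edgeR adjusted p = 0.643). Rsph3b was lower than Rsph3a in every library, the ratio of their FPKM being 2.08 to 2.52, within the limit set by their shared sequence.

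The spoke head paralogs Rsph6a and Rsph4a were far apart in level. Rsph6a, the testis form, had 110, 113 and 109 FPKM in controls and 110, 104 and 118 FPKM in inhibitor mice. Rsph4a, known from motile cilia of epithelia, had 0.0571, 0.0710 and 0.0872 FPKM in controls and 0.0890, 0.0374 and 0.140 FPKM in inhibitor mice. The ratio within a library was 843 to 2784, a range that follows the few fragments of Rsph4a. The spread of Rsph6a over the mice gave a log2 fold change of 0.00 with an interval from -0.117 to 0.117.

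The central pair gene Spag6 showed the largest estimate. Its CPM was 327, 332 and 307 in controls and 355, 362 and 340 in inhibitor mice. The 3 inhibitor mice were all above the 3 controls, by a small margin between inhibitor 3 and control 2. The log2 fold change was 0.13 (SE 0.047, interval 0.025 to 0.230), with an unadjusted p of 0.0187 in edgeR and an adjusted p of 0.187. Without inhibitor mouse 3 it was 0.15, and the adjusted p was 0.0279 in a fit that called 14.3% of all genes. The symbol Spag6 has been used for a pair of genes on different chromosomes, and which of them the table counts is not stated, so no position or length is given for it.

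The other central pair genes did not pass the test. Spag17 was at 524, 483 and 495 CPM in controls and 498, 468 and 492 CPM in inhibitor animals (log2 estimate -0.043, SE 0.046, edgeR adjusted p = 0.665). Spag17 has the longest transcript of the members with a known length, 7862 bases. Spag16, which is needed for central pair stability, lay between 82.9 and 89.6 FPKM in the 6 mice, and its interval ran from -0.064 to 0.151.

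The 5 tektins had the lowest median log2 fold change of the roles, -0.029, against 0.011 for assembly factors, 0.033 for intermediate and light chains, 0.030 for radial spokes and 0.043 for the central pair. Tekt1 had the highest level, 265, 263 and 274 FPKM in controls and 267, 267 and 284 FPKM in inhibitor mice. Tekt3 was at 196, 201 and 197 CPM in controls and 205, 205 and 213 CPM in inhibitor mice. Its groups did not overlap, but the interval of its log2 fold change (0.068, SE 0.044) ran from -0.028 to 0.164 and the edgeR adjusted p was 0.451. Tekt5 was at 131, 121 and 127 CPM in controls and 112, 128 and 122 CPM in inhibitor mice; inhibitor mouse 1 alone lay below every control (log2 fold change -0.071, SE 0.059, edgeR adjusted p = 0.556). Tekt2 and Tekt4 had estimates of -0.029 and -0.048, with overlapping groups.

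The dynein heavy chains, listed under the older symbol Dnahc, varied between libraries, and none passed the test. Of the 11, 0 passed edgeR's adjusted test (0.156% of all genes did), 0 had an unadjusted p under 0.05 (9.43% of all genes higher and 8.48% lower), and none passed the adjusted test in any alternative run, DESeq2 included. At an unadjusted p under 0.05, 2 were lower in DESeq2 (986 of all 16658 genes were) and 1 was lower with library totals alone (2025 of all). With the length and GC offset 2 were higher, Dnahc9 and Dnahc11 (1236 of all). The 8 with a mean of at least 20 CPM (Dnahc1, Dnahc2, Dnahc6, Dnahc7a, Dnahc7b, Dnahc8, Dnahc10 and Dnahc17; the limit was chosen after the values were seen) all had estimates below 0 as fitted, from -0.269 (Dnahc8) to -0.093 (Dnahc7a), with a median of -0.213. That median ran from -0.347 without inhibitor mouse 1 to -0.123 without inhibitor mouse 3, and was 0.000 with the length and GC offset. The 3 scarcer chains had estimates above 0: Dnahc5 0.071, Dnahc9 0.094 and Dnahc11 0.22. With the offset these were further from 0, at 0.245, 0.296 and 0.397. Over all 11 the median was -0.182 as fitted and 0.016 with the offset, which left 7 estimates above 0 and 4 below. The groups overlapped in every case. Dnahc8, the outer-arm heavy chain of sperm, was at 1091, 844 and 1111 CPM in controls and 1026, 800 and 701 CPM in inhibitor mice. Dnahc17, its outer-arm partner, was at 524, 411 and 513 CPM in controls and 488, 366 and 368 CPM in inhibitor mice. Control 2 and inhibitor mice 2 and 3 were the 3 lowest libraries for each of the 8. A control was thus among the lowest libraries, and inhibitor mouse 1 was not. The same 3 libraries were lowest for Hydin and Dync2h1, which also have long transcripts. Hydin was at 202, 161 and 206 CPM in controls and 194, 150 and 145 CPM in inhibitor mice. Dync2h1, a transport gene, was at 186, 145 and 191 CPM in controls and 174, 141 and 132 CPM in inhibitor mice. Dnahc7a and Dnahc7b share 25.67% and 31.45% of their read-length stretches with other genes, most often the further copy Dnah7c, and their values are uncertain.

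Measured as log2 CPM minus the gene's mean over the 6 libraries, the median of the 8 heavy chains was 0.207, -0.113 and 0.205 in controls and 0.144, -0.199 and -0.247 in inhibitor mice. The median of the 19 tested members stayed between -0.038 and 0.063 in the same libraries. The coefficient of variation of the 8 had a median of 14.5%, against 3.7% for the members. A test of the difference between the sets was not run. The 8 were chosen by family and by a limit set after the values were seen. Their transcripts are longer than those of all members with a known length.

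**Figure D3:**
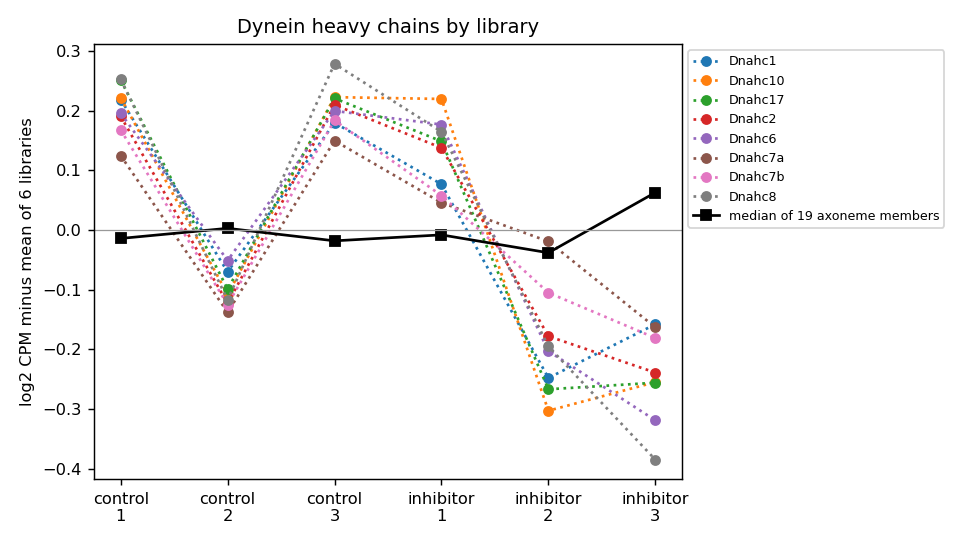
Log2 CPM minus the mean of the 6 libraries for the 8 heavy chains with at least 20 CPM (coloured circles) and the median of the 19 tested members (black squares). The heavy chains are high in controls 1 and 3 and inhibitor 1 and low in control 2 and inhibitors 2 and 3; the line of the members stays between -0.038 and 0.063.

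Within the outer arm, paralogs differed in level as the radial spoke heads did. Dnahc8 exceeded Dnahc5, the outer-arm chain of motile cilia, 285 to 449 times in FPKM. Dnahc17 exceeded Dnahc9 46.1 to 63.6 times and Dnahc11, a further ciliary chain, 65.4 to 147 times. These ratios are descriptions within each library, and the low partner was below 0.7 FPKM in each case. Of 13 markers of multiciliated epithelium, another source of such transcripts, 9 were tested: 6 were higher and 3 lower in estimate, and 0 passed the adjusted test (0.156% of all genes did). At an unadjusted p under 0.05, 2 were higher (22.2%, against 9.43% of all genes) and 0 lower (8.48% of all). With the length and GC offset these were 1 and 1 (1236 and 986 of all 16658 genes). The groups did not overlap, with inhibitor mice higher, for 2 (22.2%, against 11%) and, with them lower, for 0 (11.9%). Without inhibitor mouse 3, Tubb4b and Fam183b passed the threshold, in the fit that called 14.3% of all genes. The list summed to 1846, 1864 and 1843 CPM in controls and 1996, 2002 and 1904 CPM in inhibitor mice, most of it Tubb4b, a tubulin gene (1374 to 1522 CPM). Ccdc67 was at 261 to 274 CPM, Foxj1, a regulator of motile ciliogenesis, at 72.8 to 95.9 CPM, Fam183b at 53.2 to 75.0 CPM and Dynlrb2 at 40.8 to 46.6 CPM. Tppp3 was at 8.57 to 13.2 CPM and Ccno at 3.23 to 3.86 CPM. Sntn, Tmem212, Gmnc and Mcidas (tabulated as Mcin) did not exceed 0.41 CPM in any library, and Myb and Trp73 did not exceed 0.730 CPM. The part of such cells in the values given here was not tested.

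**Figure D4:**
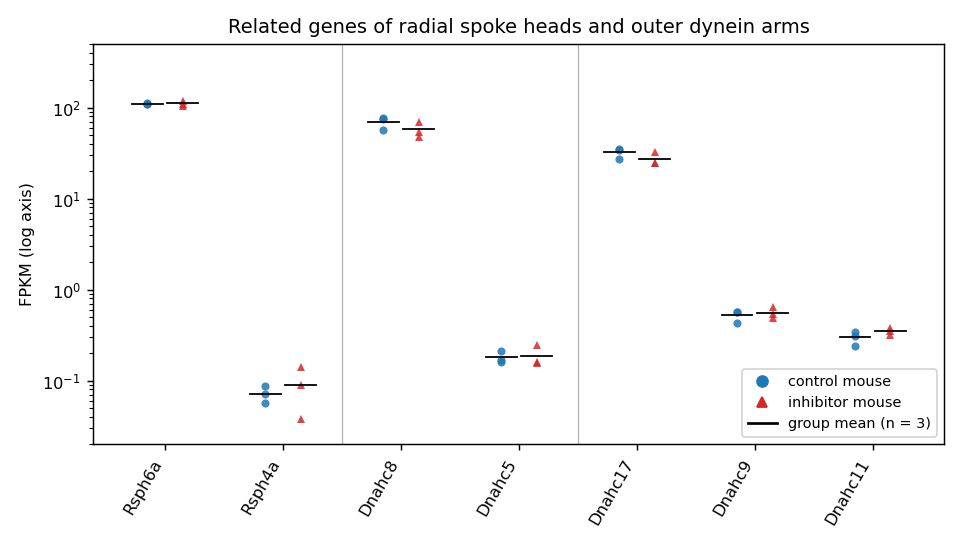
FPKM (log axis) of Rsph6a with its paralog Rsph4a, Dnahc8 with Dnahc5, and Dnahc17 with Dnahc9 and Dnahc11, in each mouse; bars are group means of 3. In each set the first gene lies above 20 FPKM and the others below 0.7 FPKM.

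Transcript length moved with the fold changes of axoneme genes. Lengths of the 19 members with one range from 966 to 7862 bases, whereas the shortest heavy chain transcript has 12245. They are lengths of the longest annotated transcript, which can exceed the length that the deposited FPKM was scaled to. Dynlt1a, for example, has 3541 bases but averaged 38.1 CPM and 68.9 FPKM, so length classes and the offset are approximate. Over members and the 86 axoneme genes outside the rule that have a length (104 tested genes), the Spearman correlation of log2 fold change with length was -0.45; over the 18 tested members with a length alone it was -0.06, and over 16492 genes of the whole table -0.34. The genes share their libraries, so these values describe the 6 libraries and carry no p. The 17 axoneme genes under 1500 bases all had estimates above 0, with a median of 0.067. The 12 of 10000 bases or more, which are the 11 heavy chains and Hydin, had a median of -0.196. All tested genes in these classes had medians of 0.111 and -0.156. Without the longest class, which holds few genes, the correlation was -0.38 (92 genes).

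The libraries themselves differed in this relation. The slope of log2 deviation on log2 length over 13627 genes was 0.0395, 0.0375 and 0.0276 in controls and -0.0446, -0.0695 and 0.0095 in inhibitor mice. In control 2 and inhibitor mice 1 and 3 its sign was opposite to that of the median deviation of the 8 heavy chains (-0.113, 0.144 and -0.247). With each library's length and GC trend removed by an offset, the correlation over the 104 genes was 0.22, that over the 18 members 0.61, and that over all genes 0.00. The median log2 fold change of the 8 heavy chains was then 0.000, while Dnahc5, Dnahc9 and Dnahc11 moved further above 0. The median of the 12 longest axoneme genes, which are the 11 heavy chains and Hydin, was then 0.009. The source of this trend was not tested.

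**Figure D5:**
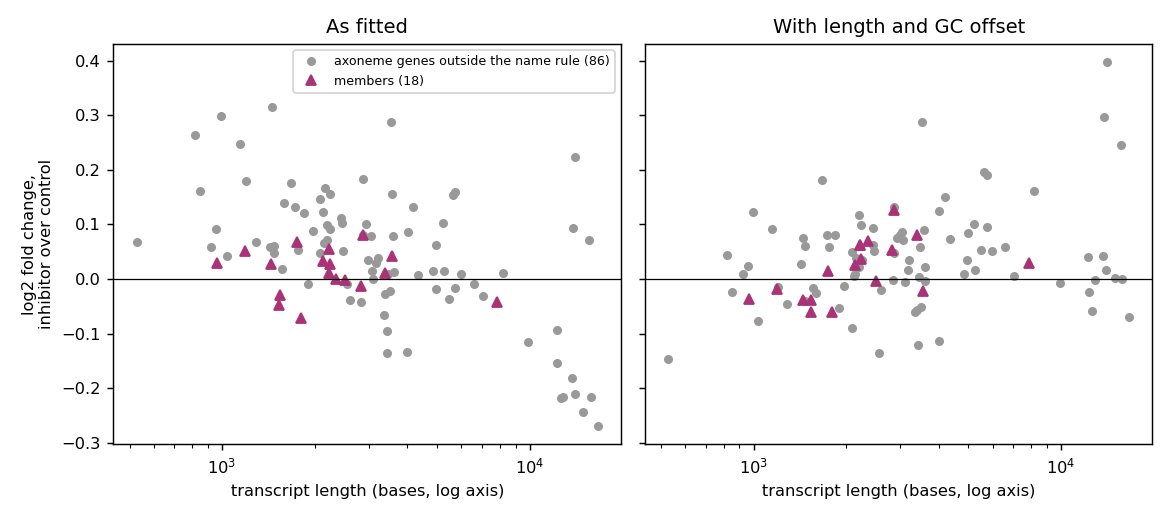
Log2 fold change of inhibitor over control against longest transcript length (log axis) for 18 tested members (triangles) and 86 axoneme genes outside the name rule (grey circles), as fitted on the left and with each library's length and GC trend removed on the right. On the left the genes above 10000 bases lie mostly below 0; on the right their median is 0.009.

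Axoneme genes that the name rule missed gave the same count of adjusted calls as the members. Of 87 such genes, all tested, 62 were higher and 25 lower in estimate, with a median log2 fold change of 0.058, and 0 passed the adjusted test, against 0.156% of all genes. At an unadjusted p under 0.05, 19 were higher (21.8%, against 9.43% of all genes) and 1 was lower (8.48% of all genes). With library totals alone these counts were 9 and 2 (1079 and 2025 of all 16658 genes). They were 12 and 2 with the length and GC offset (1236 and 986 of all) and 14 and 3 in DESeq2 (1459 and 986 of all). Without inhibitor mouse 3, 13 higher and 1 lower gene passed the adjusted threshold, in the fit that called 14.3% of all genes. Dydc1 was at 32.3, 32.9 and 34.0 CPM in controls and 44.9, 36.9 and 40.3 CPM in inhibitor animals (log2 estimate 0.30, SE 0.075, edgeR adjusted p = 0.103). Enkur, a sperm protein that binds calcium channels, was at 146, 138 and 143 CPM in controls and 165, 158 and 162 CPM in inhibitor mice (0.18, SE 0.047, edgeR adjusted p = 0.104). Both were past the threshold without inhibitor mouse 3 (adjusted p = 0.0170 and 0.0187) and in DESeq2, which called 5.18% of the genes it gave an adjusted p. With the length and GC offset their log2 fold changes were 0.12 and -0.014. The 1 gene lower at this p was Ccdc19, also known as Cfap45 (-0.14, SE 0.045, edgeR adjusted p = 0.149, and 0.0228 without inhibitor mouse 3).

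Genes that carry axoneme parts into the flagellum or regulate them gave no adjusted call either. Of 25 intraflagellar transport genes, 14 were higher and 11 lower in estimate, with 3 at an unadjusted p under 0.05, all higher (12% against 9.43%). With the length and GC offset 1 was higher at that p (1236 of all 16658 genes were). Without inhibitor mouse 3, 5 were higher and 2 lower (2559 and 2256 of the 16658). Ift74 was at 226, 216 and 241 CPM in controls and 264, 277 and 248 CPM in inhibitor animals (log2 estimate 0.21, SE 0.056, edgeR adjusted p = 0.106). Ift20 was estimated at 0.24 on the same scale (SE 0.094, edgeR adjusted p = 0.220), with overlapping groups. Of 12 tested transcription factors of ciliated and flagellated cells, 1 was higher and 1 lower at an unadjusted p under 0.05 (8.33% each, against 9.43% and 8.48% of all genes). With library totals alone 0 were higher and 3 lower (1079 and 2025 of all 16658 genes). With the trimmed mean of M values, the higher gene was Crem, a spermatid regulator (0.16, SE 0.068, edgeR adjusted p = 0.250). The lower was Rfx1, a factor that binds the X-box (-0.16, SE 0.066, edgeR adjusted p = 0.232). Without inhibitor mouse 3, Ift74, Ift20 and Crem passed the threshold (adjusted p = 0.00422, 0.00678 and 0.00279), as 14.3% of all genes did in that fit. Ift74 also passed in DESeq2 (adjusted p = 0.0357). With the length and GC offset the log2 fold changes were 0.073 for Ift74, 0.093 for Ift20, 0.085 for Crem and -0.024 for Rfx1.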

How the data were processed

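Polyadenylated RNA of 6 whole testes was sequenced as single-end reads of 81 nt from 500 ng of RNA with a directional kit, per the labels' protocols. Cuffdiff 2.2.1, TopHat2 2.0.13 and cutadapt 1.8 are named, with build mm10, per the submitters' processing notes; the sources used here state neither annotation nor strand setting. The deposited values are expected counts (fragments per gene, unscaled; 98.8% of 140166 whole within 1e-06), rounded here, and FPKM, scaled by the authors to length and library size. No member had a failed status.

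Genes were tested with edgeR 4.0.16 (R 4.3.3; filterByExpr, trimmed mean of M values, robust quasi-likelihood F-test, two-sided, Benjamini-Hochberg over 16658 genes, threshold 0.05); the procedure was tested on simulated data. Alternatives were other scalings and filters, the 50 most abundant genes removed, leaving out each mouse, a block for the mouse number, DESeq2 1.42.0, limma-voom and limma 3.58.1 on log2(FPKM + 1) and log2(FPKM + 0.1), and an offset from a loess fit (span 0.5, genes above log2 CPM 1) of each library on length and GC of the longest GENCODE M21 transcript, known for 99% of tested genes. Fold changes are inhibitor over control. Motifs were searched on both strands.

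The members and lists were chosen with earlier results of these data known. The length classes and the grouping of axoneme genes outside the name rule were set after the values were seen. Named were, in each role, the gene with the highest FPKM and the 2 with the smallest p, all heavy chains, near-identical paralogs, and the 2 smallest p of each other list; further members are given by range.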

Additional observations from a re-analysis of the deposited data

How the results depend on the processing

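The count of all genes past the threshold, 26, was 115 without a filter, 10 with at least 50 counts in 3 libraries, 5 with the mouse number as a replicate block, 532 in DESeq2, 14 in limma-voom, 0 and 1 with limma on log2(FPKM + 1) and log2(FPKM + 0.1), and 6 with the length and GC offset; leaving out 1 mouse gave 0 to 2405, the highest without inhibitor mouse 3. Each gene's group mean was subtracted from its log2 CPM, and the remaining deviations were correlated between control and inhibitor mice. Same-numbered mice gave r = 0.096, -0.066 and 0.064, and differently numbered mice -0.182 to 0.132. The numbers were therefore not taken as pairs. The number of members past the threshold was 0 under every alternative except without inhibitor mouse 3, where it was 1 (Spag6), a range of 0 to 1. The count of members higher at an unadjusted p under 0.05, 1, was 0 with library totals alone (1079 of all 16658 genes were) and 0 to 1 leaving out mice. The members' median log2 fold change ran from -0.014 to 0.040 when mice were left out, the lowest without inhibitor mouse 3. The median of the 8 more abundant heavy chains ran from -0.347 to -0.123 in those fits and was 0.000 with the offset. The rank correlation with length over axoneme genes was -0.54 to -0.36 leaving out mice and 0.22 with the offset.

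For 40 named genes and 17 alternatives, 48 of 680 log2 fold changes changed sign, none of them past the threshold in that alternative. With library totals alone the values were -0.020 for Dnaaf2, -0.019 for Dnaaf3, -0.003 for Rsph3b, -0.001 for Rsph9 and -0.003 for Tekt1. With the offset they were 0.054 for Dnaaf1, -0.019 for Rsph1, 0.070 for Rsph6a, -0.036 for Rsph9, -0.022 for Spag16, 0.029 for Spag17, -0.038 for Tekt1, 0.016 for Dnahc10, 0.001 for Dnahc17, 0.042 for Dnahc2, 0.040 for Dnahc7a and -0.014 for Enkur. Dnaic1 was 0.003 with RLE size factors and 0.002 in DESeq2. Rsph6a was 0.005 with RLE size factors, 0.001 without a filter, 0.001 without the 50 most abundant genes, 0.004 in DESeq2 and 0.001 in both limma fits on FPKM. Leaving out mice gave -0.057 to 0.013 for Dnaaf1, -0.014 to 0.051 for Dnaaf2, -0.020 to 0.048 for Dnaaf3, -0.034 to 0.026 for Dnaic1, -0.025 to 0.138 for Dnaic2, -0.056 to 0.084 for Rsph3b, -0.051 to 0.044 for Rsph6a, -0.002 to 0.052 for Tekt1, -0.058 to 0.005 for Tekt2, -0.101 to 0.010 for Tekt4, -0.183 to 0.195 for Dnahc5 and -0.037 to 0.184 for Dnahc9. The cause of these changes was not tested. Rsph4a had too few fragments for a change to be detectable.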
